A study of Mus musculus with 2 samples.

Results

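The genes that encode potassium, sodium and calcium channels and their auxiliary subunits were compared between a teratoma library from E14 cells and one from E14-Sox2TA/WT cells. Members were the protein-coding genes whose symbols carry the family names Kcn, Scn, Cacna1, Cacna2d, Cacnb, Cacng or Hcn followed by a member's letter or number, without regard to their values. This gave 136 of the 45777 genes in the table, of which 21949 are protein coding. E14 is a wild-type mouse embryonic stem cell (ESC) line. E14-Sox2TA/WT is a line grown from a single edited E14 cell, in which 1 allele of Sox2 encodes alanine in place of threonine (T258A) and the other is wild type. Cells of each line were placed under the skin of 3 BALB/c-nu nude mice, which lack T cells but keep other host cells, and teratomas were taken after 14 days. PolyA RNA was sequenced as 1 library per group, called the E14 library and the Sox2 T258A library below. Whether a library came from a single teratoma or a pool is not given in the sources used here, and the labels name teratoma as the tissue while their extraction text speaks of an ESC line.

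With 1 library per group, no difference has a replicate check and no p-value was computed. Reads counted on genes came to 50529171 for E14 and 49030281 for Sox2 T258A. Intervals are 95% Clopper-Pearson intervals of the split of a gene's reads, which cover counting error only and compare the libraries, not the conditions. Levels are given in TPM, which are reads divided by transcript length and scaled to the same sum in each library, and where a pair of levels is given the E14 library comes first and the Sox2 T258A library second. Members are called expressed here if either library reached 1 TPM. Markers of several tissues were present in both libraries. Summed TPM of 9 neuron markers, such as Tubb3 and Rbfox3, was 2647 with E14 and 392 with Sox2 T258A. All 5 pluripotency markers were higher in the Sox2 T258A library, with a summed TPM of 67.8 against 1749.

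Ion channels let selected ions cross the membrane along their gradients. Sodium channels start action potentials, calcium channels couple voltage to secretion and contraction, and potassium channels bring the membrane back to rest. Each is built from pore-forming subunits, often joined by auxiliary subunits that set their number at the surface and their gating. Neurons use a wide range of them, muscle a narrower one, and epithelia mostly the potassium channels that hold the resting potential.

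The sequences around the starts of some of these genes are shown because neighbouring or related members differed in direction. Each window runs from 250 bases before to 50 bases after a RefSeq transcript start of GRCm38.p6 and is written from 5′ to 3′ on the strand of the gene. Sox2 is known to bind the letters CTTTGT or CATTGT, and capitals mark these or their reverse complements, ACAAAG and ACAATG. The neighbours Scn2a and Scn9a were lower in the Sox2 T258A library and Scn7a was higher. Of the two-pore-domain genes, Kcnk2 was lower, Kcnk5 was higher, and Kcnk1 differed little. The study names Kcnk1 as a putative target that the sugar O-GlcNAc on Sox2 T258 may repress directly. That list came from ESC and embryoid body data, not from teratomas, so the levels given here do not test it.
Scn2a, chr2:65620519-65620818, plus strand: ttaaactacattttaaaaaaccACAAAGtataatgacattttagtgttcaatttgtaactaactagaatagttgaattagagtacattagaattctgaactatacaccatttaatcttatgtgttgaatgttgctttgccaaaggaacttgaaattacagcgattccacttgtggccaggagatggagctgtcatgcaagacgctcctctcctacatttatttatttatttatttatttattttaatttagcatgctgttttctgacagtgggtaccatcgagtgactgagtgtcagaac
Scn9a, chr2:66634913-66635212, minus strand: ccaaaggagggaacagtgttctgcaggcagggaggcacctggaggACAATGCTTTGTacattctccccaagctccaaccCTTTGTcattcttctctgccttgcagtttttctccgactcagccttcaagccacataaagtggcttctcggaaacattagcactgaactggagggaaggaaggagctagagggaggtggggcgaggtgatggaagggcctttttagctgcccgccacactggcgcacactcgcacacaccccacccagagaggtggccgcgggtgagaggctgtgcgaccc
Scn7a, chr2:66784861-66785160, minus strand: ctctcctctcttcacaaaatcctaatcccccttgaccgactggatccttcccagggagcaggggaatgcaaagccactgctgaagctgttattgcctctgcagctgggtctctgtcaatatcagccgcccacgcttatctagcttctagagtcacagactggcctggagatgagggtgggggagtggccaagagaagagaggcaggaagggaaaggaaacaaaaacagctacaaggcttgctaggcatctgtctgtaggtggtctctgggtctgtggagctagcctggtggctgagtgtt
Kcnk1, chr8:125994852-125995151, plus strand: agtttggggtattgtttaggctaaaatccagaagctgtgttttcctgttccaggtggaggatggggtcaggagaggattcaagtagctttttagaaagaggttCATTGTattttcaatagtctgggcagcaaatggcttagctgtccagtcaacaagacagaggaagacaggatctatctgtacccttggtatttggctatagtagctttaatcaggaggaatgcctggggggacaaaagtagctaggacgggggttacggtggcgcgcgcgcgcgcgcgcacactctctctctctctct
Kcnk2, chr1:189343658-189343957, minus strand: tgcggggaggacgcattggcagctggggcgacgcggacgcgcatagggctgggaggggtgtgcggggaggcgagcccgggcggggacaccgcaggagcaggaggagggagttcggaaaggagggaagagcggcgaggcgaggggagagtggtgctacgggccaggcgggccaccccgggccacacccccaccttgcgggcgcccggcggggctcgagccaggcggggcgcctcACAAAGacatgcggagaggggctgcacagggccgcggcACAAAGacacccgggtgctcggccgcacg
Kcnk5, chr14:20181733-20182032, minus strand: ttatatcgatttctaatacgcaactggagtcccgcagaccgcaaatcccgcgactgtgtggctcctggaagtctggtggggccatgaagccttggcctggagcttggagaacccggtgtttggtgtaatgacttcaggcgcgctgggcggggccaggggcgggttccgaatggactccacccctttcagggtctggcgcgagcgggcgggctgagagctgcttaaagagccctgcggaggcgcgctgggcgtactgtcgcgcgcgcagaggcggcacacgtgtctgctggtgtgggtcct

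The Scn2a window shown held 1 marked run, at -228 from the start, and the other of its 2 windows held 1, at -71. The Scn9a window held 3, at -205, -199 and -171, of which the first pair adjoin without overlapping. Kcnk2 has 4 windows, and the one shown has the most runs, at -17 and 21, whereas another has 1 and the other two have none. Kcnk1 had 1 run at -147, and the windows of Scn7a and Kcnk5 had none. With windows chosen in this way, no contrast between lower and higher genes is drawn from them. Windows were found for 99 of the 136 members, 135 windows in all, because some genes have several starts. CTTTGT was present on either strand in 17.8% of the channel windows and in 18.7% of all 32851 windows, and CATTGT in 5.93% against 12.6%. Either motif was found in 19 of the 75 windows of genes lower by more than 2-fold, or 25.3%, in 2 of the 10 windows of genes higher by more than 2-fold, and in 28.6% of all windows. The longer RE1 motif, bound by the repressor of neuronal genes Rest, was in 0 channel windows and in 21 of all windows, or 0.064%. A motif this rare in all windows cannot be judged from 135 of them, so no lack of it is read from the 0. A match of letters is a description of the window and not a binding site.

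Channel transcripts were less abundant in the Sox2 T258A library. Their summed TPM was 952 with E14 and 403 with Sox2 T258A. They took 108394 reads, or 0.215% of the total, with E14 and 43713 reads, or 0.0892%, with Sox2 T258A. Of the 136 members, 133 had reads, and TPM was lower in the Sox2 T258A library for 93 and higher for 40. Over all genes with reads, 13444 were lower and 15701 higher. Among protein-coding genes with reads, which is the type of all members, 9445 were lower and 9343 higher. In these tumours, fewer cells of a type and less RNA per cell cannot be told apart.

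By the rule of the study's methods, a fold change above 2 where either library reaches 10 TPM, 25 of 33 members were lower in the Sox2 T258A library, or 75.8%. The same rule called 18.7% of all 11578 genes lower. It called 2 members higher, or 6.06%, against 10.8% of all genes. Among 10757 protein-coding genes it called 2080 lower and 1013 higher. Over all genes, 1253 were called higher and 2167 lower here. The study reported fewer teratoma genes in each direction, so these shares are not its own. With the floor lowered to 1 TPM, 101 members entered. Of these, 66 (65.3%) were lower by more than 2-fold, against 18.9% of 18558 genes, and 13 (12.9%) were higher, against 19.3% of all genes. The other 22 lay within 2-fold. Of 15694 protein-coding genes at the same floor, 2963 were lower and 2668 higher by more than 2-fold. Such a filter admits a gene through the library in which it is high, so the members that entered are not the whole set. A total of 24 members reached 1 TPM with E14 only and 11 with Sox2 T258A only.

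The median log2 ratio of the 101 members, Sox2 T258A over E14 with 1 added to each TPM, was -1.04, against -0.06 for all genes under the same filter. The scale of the library total shifted both. On FPKM, the median was -0.92 for the members and 0.12 for all genes, and with TMM factors it was -0.96 and 0.01. Transcript length moved with the difference as well. The median length implied by reads and FPKM was 4676 nt for members and 2913 nt for all genes, and over all genes the median log2 ratio was 0.49 in the shortest and -0.65 in the longest of 20 length bins. After the median of genes of like length was subtracted, the members' median was -0.52. On that scale, 34 of the 101 members were lower by more than 1 log2 unit, compared with 12.6% of the other genes, and 10 were higher, compared with 14.7%. Before the subtraction, with 1 added to each TPM, 52 members were lower and 6 higher by more than 1 log2 unit. The part of length in the difference was not tested.

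**Figure D1:**
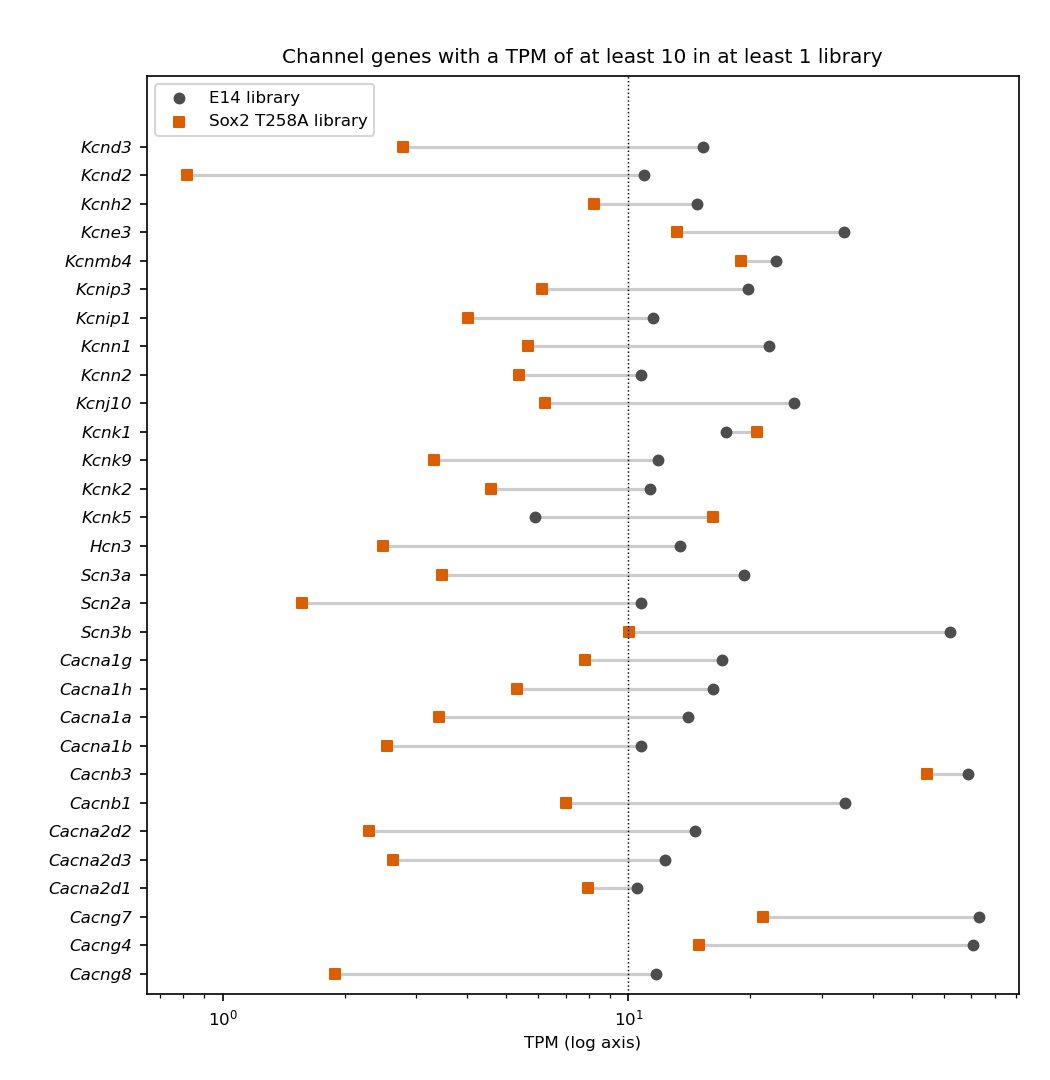
TPM of 30 channel genes that reached 10 in either library, on a log axis, with circles for the E14 library and squares for the Sox2 T258A library (1 library each, so no error bars). The square lies left of the circle for every gene plotted except Kcnk1 and Kcnk5, and the dotted line marks a TPM of 10.

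The order of abundance differed between the libraries. With E14 the highest levels were those of Cacng7, at a TPM of 73.1, Cacng4, at 70.5, Cacnb3, at 68.8, and Scn3b, at 62.2. In the Sox2 T258A library Cacnb3 was first at a TPM of 54.5, and Cacng7 followed at 21.4, Kcnk1 at 20.8 and Kcnmb4 at 18.9. The 10 most abundant members of each library had 6 genes in common.

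Pore-forming subunits of the voltage-gated potassium channels Kv1 to Kv4, which repolarise the membrane after an action potential, were lower as a class. Of 17 genes, 12 were expressed, and 10 of these were lower by more than 2-fold and 0 higher, and the class median was -1.44 on the log2 scale. Kcnd2, which carries the dendritic A-type current of neurons, had 10.9 TPM with E14 and 0.81 TPM with Sox2 T258A, 13.4 times lower (interval 11.1 to 16.3). Its relative Kcnd3, shared by neurons and heart, had a TPM of 15.3 and 2.78, 5.49 times lower (5.02 to 6.02). The third member of that family, Kcnd1, went the other way, with a TPM of 2.63 and 3.68.

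Among the fast Kv3 channels of rapidly firing neurons, Kcnc1 had 9.91 TPM with E14 and 1.0 TPM with Sox2 T258A. It was 9.90 times lower (8.52 to 11.6). Kcnc2 had 1.12 and 0.50, but its reads scaled to the library total were 1.30 times lower. Kcna3, best known from T lymphocytes and also present in neurons, had the steepest ratio of the class with few reads, 157 and 11, for a TPM of 3.30 and 0.20. Kcna2 of axons was also lower, at a TPM of 2.69 and 0.66. Kcna5, a channel of heart and smooth muscle, had 2.28 and 2.06, and its direction depended on the scale, since its reads were 166 and 167.

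The KCNQ channels carry the M-current, which steadies neuronal firing, and the slow repolarising current of heart. Of 5 members, 4 were expressed, and these 4 were lower by more than 2-fold by TPM. Kcnq3, an M-channel subunit, had 3.33 and 1.41, 2.36 times lower (2.11 to 2.65). The cardiac and epithelial Kcnq1 had 1.59 and 0.71, and Kcnq5 of brain had 1.22 and 0.48. The reads of Kcnq1, 109 and 60, were under 2-fold apart, so its place beyond 2-fold holds for TPM only.

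In the EAG family, 5 of the 7 expressed genes were lower and 2 higher, of which 4 and 1 by more than 2-fold. Kcnh2, the ERG channel of heart and other tissues, was the most abundant, with a TPM of 14.7 and 8.22, 1.79 times lower (1.64 to 1.96). Kcnh4 had 5.19 and 0.73, and Kcnh3 had 0.85 and 2.27. These last are forebrain channels of the same subfamily, and they differed in direction. Of the 10 modifier subunits, which alter Kv2 channels but form no channel alone, 4 were expressed. Kcnf1, at 1.99 and 0.74, and Kcnv1, at 1.03 and 0.19, were lower, whereas Kcns3, at 2.33 and 6.26, and Kcng1, at 0.28 and 1.21, were higher.

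Channels opened by intracellular calcium or sodium were mostly lower. Of 7 expressed genes, 6 were lower and 1 higher, of which 3 and 1 by more than 2-fold. Kcnn1, a small-conductance channel of neurons, had 22.2 and 5.66 TPM, 3.93 times lower (3.56 to 4.35). Its relatives Kcnn2 and Kcnn3 had 10.8 and 5.39, and 8.58 and 1.39. Kcnn4, the intermediate-conductance channel of epithelia and blood cells, was higher at 0.34 and 1.53. Kcnn2 fell just short of 2-fold by TPM and was 2.65 times lower (2.33 to 3.01) by reads scaled to the library total. Kcnma1, the large-conductance BK channel, had 6.93 and 2.31.

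Auxiliary subunits of potassium channels differed by family. All 4 Kcnip genes, whose products bind Kv4 channels, were lower by more than 2-fold. Kcnip3 had a TPM of 19.7 and 6.12, 3.23 times lower (2.91 to 3.59), and Kcnip1 had 11.5 and 4.03, 2.86 times lower (2.46 to 3.33). Kcnip2, of heart and brain, had 3.67 and 0.90. Kcnip4 had 2.87 and 0.41, but its reads scaled to the library total were only 2.54 times lower (1.91 to 3.41), against 7.05 times by TPM. BK subunits were not lower as a group, since Kcnmb1 of smooth muscle had 0.90 and 2.61, Kcnmb2 had 3.38 and 6.30, and Kcnmb4 of brain had 23.2 and 18.9. Of the Kcnmb4 exon bases, 31.5% lie in other genes, and counting by strand is not given in the sources used here. Kcne3, an epithelial subunit, had 34.0 and 13.2, 2.59 times lower (2.30 to 2.91), and Kcne4 had 1.31 and 3.12.

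The inward rectifiers, which hold the resting potential, had a class median of -0.06 on TPM and 0.063 on FPKM over 9 expressed genes, so its direction depended on the scale. Kcnj10, the rectifier of astrocytes and other glia, had 25.6 and 6.22 TPM, 4.11 times lower (3.82 to 4.43). Kcnj9 and Kcnj3, subunits of G-protein-gated channels in neurons, had 1.81 and 0.30, and 2.06 and 0.48. For Kcnj3, reads scaled to the library total were 1.83 times lower, not the 4.33 times of TPM. In contrast, Kcnj2 and Kcnj8, channels of muscle and vessel wall, had 3.20 and 3.67, and 3.07 and 4.0. Kcnj4 was higher, with 10 and 107 reads, or 0.058 and 1.27 TPM. The renal Kcnj16 had 2.74 and 4.15. Glial markers were lower in the same library, 8 of 8, with a summed TPM of 3202 and 941 and none at 0. Fabp7 carried that sum, at 2497 and 708. Of the 8 markers, 6 were lower by more than 2-fold. The astrocyte markers Gfap, at 137 and 76.4, and Aqp4, at 30.3 and 17.1, lay within 2-fold. The part of these markers in the Kcnj10 difference was not tested.

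The two-pore-domain channels, which leak potassium at rest, held members on both sides. Of 9 expressed genes, 4 were lower and 2 higher by more than 2-fold, with a median of 0.24. Kcnk9 had 11.8 and 3.31, 3.58 times lower (3.28 to 3.90), and Kcnk2, a mechanosensitive channel, had 11.3 and 4.58, 2.47 times lower (2.2 to 2.78). Kcnk5, an acid-sensitive channel of kidney and other epithelia, had 5.90 and 16.2, 2.74 times higher (2.47 to 3.05). Kcnk6 had 0.84 and 3.71, 4.43 times higher (3.49 to 5.68). Kcnk1 had 17.4 and 20.8, a ratio of 1.19 (1.10 to 1.30). Epithelial markers were higher in the Sox2 T258A library, 5 of 5, with a summed TPM of 340 and 961 and none at 0. Their part in these differences was not tested.

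The HCN channels, which carry the pacemaker current of heart and neurons, were lower in each of the 3 expressed members. Hcn3 had a TPM of 13.4 and 2.48, 5.39 times lower (4.69 to 6.20). Hcn4, the main form of the sinus node, had 7.23 and 1.39, and Hcn2 had 4.87 and 1.53.

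**Figure D2:**
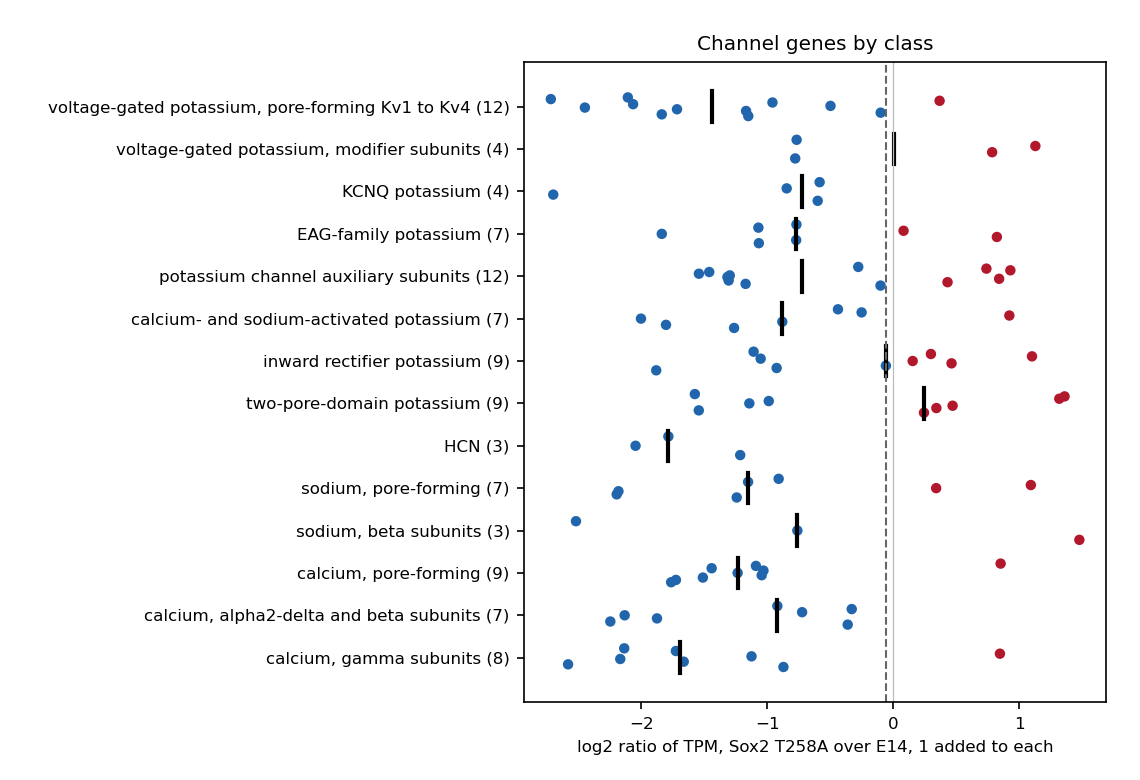
Log2 ratio of TPM, Sox2 T258A over E14 with 1 added to each, for the 101 expressed channel genes (1 TPM or more in either library), by class, with the number of genes in parentheses. Each point is 1 gene (blue below 0, red above), black bars are class medians, and the dashed line is the median of all genes, -0.06. The HCN median of -1.78 is the lowest and the two-pore-domain median of 0.24 the highest.

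Pore-forming sodium channels of neurons were lower. Scn3a, the form of the embryonic brain, had 19.3 and 3.47 TPM, 5.55 times lower (5.17 to 5.97). Scn2a, of early axons, had 10.8 and 1.57, 6.86 times lower (6.15 to 7.67). Scn8a, of mature nodes, had 6.51 and 2.38, and Scn1a, of inhibitory neurons, had 3.33 and 0.83. These 4 neuronal forms were thus all lower in the Sox2 T258A library. In contrast, Scn7a, which responds to sodium concentration rather than voltage, had 0.39 and 1.97, 5.0 times higher (3.87 to 6.54). Of the 3 expressed sodium channel beta subunits, 2 were lower and 1 was higher by more than 2-fold. The lower ones were Scn3b, at 62.2 and 10.03, 6.20 times lower (5.81 to 6.61), and Scn2b, at 3.89 and 1.88, 2.06 times lower (1.76 to 2.43). The reads of Scn2b, 427 and 231, were under 2-fold apart.

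Of the 10 pore-forming calcium channel genes, 9 were expressed, with 8 lower and 1 higher by more than 2-fold. Cacna1a and Cacna1b, the P/Q- and N-type channels that trigger transmitter release, had 14.01 and 3.42 TPM, and 10.7 and 2.55 TPM. They were 4.09 times (3.78 to 4.43) and 4.21 times lower (3.86 to 4.59). The low-voltage T-type channels Cacna1g and Cacna1h had 17.0 and 7.80, and 16.2 and 5.33. Cacna1e, the R-type channel, had 5.78 and 1.88. Cacna1g was 2.18 times lower (2.05 to 2.31) by TPM but 1.88 times by reads scaled to the library total, which is under the threshold. Of the L-type channels, Cacna1c of heart, smooth muscle and brain had 4.41 and 0.90, whereas Cacna1s of skeletal muscle had 0.41 and 1.55, 3.75 times higher (2.84 to 5.02). Part of the Cacna1s exon bases lies in other genes. The skeletal muscle markers were lower, 8 of 8, with a summed TPM of 332 and 177.

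The beta and alpha2-delta subunits bring calcium channels to the surface. Cacnb1 had a TPM of 34.2 and 7.03, 4.86 times lower (4.44 to 5.33), while Cacnb3 had 68.8 and 54.5, a ratio of 0.79 (0.76 to 0.83) by TPM and 0.96 by reads scaled to the library total. Cacna2d2 had 14.6 and 2.30, 6.37 times lower (5.68 to 7.15), and Cacna2d3 had 12.3 and 2.63, 4.68 times lower (4.11 to 5.34). Cacnb4 of cerebellar and other neurons had 2.91 and 1.07. Cacna2d1, which is used in muscle as well as in neurons, had 10.5 and 7.97. Each family thus held members that differed several-fold beside a member within 2-fold.

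Of the 8 gamma genes, 7 were lower and 1 was higher by more than 2-fold. Most of them encode subunits of AMPA-type glutamate receptors (TARPs) rather than of calcium channels. Among these, Cacng7 had a TPM of 73.1 and 21.4, 3.41 times lower (3.22 to 3.62), Cacng4 had 70.5 and 14.9, 4.72 times lower (4.46 to 5.0), and Cacng8 had 11.7 and 1.89, 6.19 times lower (5.03 to 7.66). Cacng2, or stargazin, had 9.49 and 0.75, 12.6 times lower (10.3 to 15.5), and Cacng3 had 6.63 and 1.41. Cacng1, a true subunit of the skeletal muscle channel, had 3.59 and 1.51, and Cacng6, also found in muscle, had 0.16 and 1.09 with 10 and 71 reads.

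Some members lie beside each other on a chromosome. Within families, 38 genes formed 15 groups with gaps of at most 1000000 bases, and 2 groups held both a lower and a higher member by more than 2-fold among those expressed. On chromosome 2 of GRCm38, Scn3a (65457118 to 65567591), Scn2a (65620764 to 65767447), Scn1a (66270781 to 66440837) and Scn9a (66480080 to 66635114) were all lower. The next gene, Scn7a (66673426 to 66784910), was higher. Scn9a, a channel of pain-sensing neurons, had a TPM of 2.58 and 0.90. On chromosome 7, Cacng7 and Cacng8 were lower and Cacng6, from 3423588 to 3435667, was higher. Scn7a and Cacng6 reached 1 TPM with Sox2 T258A only, and Cacng6 rests on 10 and 71 reads.

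**Figure D3:**
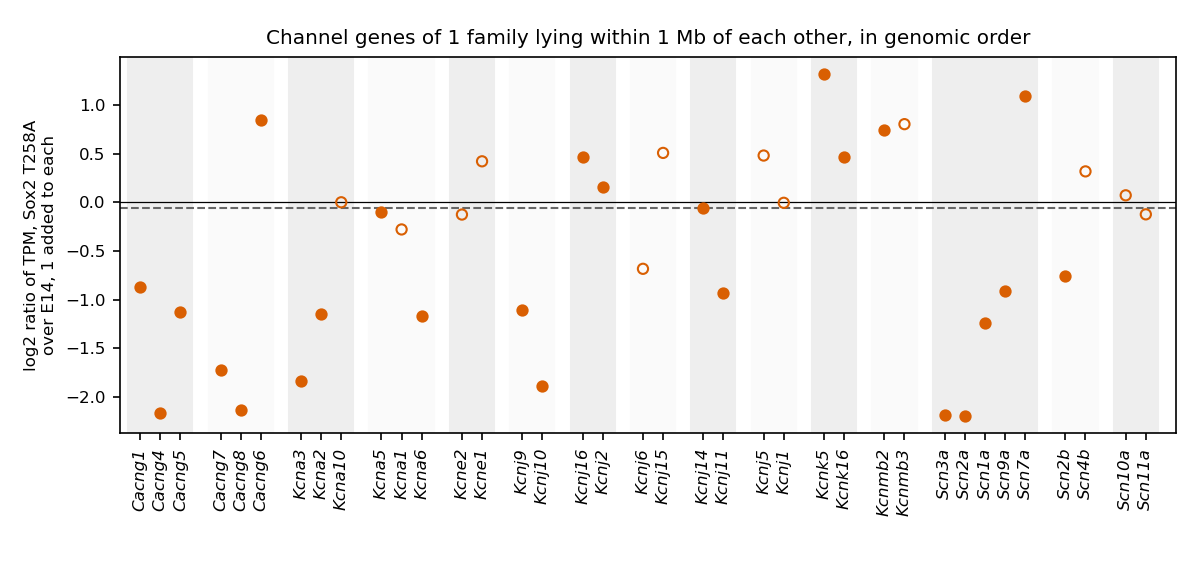
Log2 ratio of TPM, Sox2 T258A over E14 with 1 added to each, for 37 channel genes in 15 groups of neighbours, in genomic order within each shaded group. Filled points reached a TPM of 1 in at least 1 library and open points did not, and the dashed line is the median of all genes. Cacng6 and Scn7a lie above 0 beside neighbours below it.

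Sorted by the tissue in which they are best known, the channels gave different medians. All 25 neuron-type channels had a lower TPM in the Sox2 T258A library, 21 of the 22 expressed ones by more than 2-fold. Their median was -1.45 on the log2 scale, and their summed TPM was 167 against 33.4. The exception was the sodium-activated Kcnt1, at 1.77 and 1.32. This count depends on which genes were listed, with earlier results known. Among others, it leaves out Kcnh3, which was higher, and Kcnmb4, which lay within 2-fold. Of 14 muscle-type channels, 11 were expressed. Of these, 5 were lower and 6 higher, of which 4 and 3 by more than 2-fold. Their median was 0.15, but the summed TPM of all 14 was lower, 30.5 against 21.5. Of 10 epithelium-type channels, 6 were expressed, with 2 lower and 4 higher, of which 2 and 2 by more than 2-fold. Their median was 0.35, but the summed TPM of all 10 was slightly lower, 62.9 against 57.9.

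Markers of the same tissues were measured beside them. The neuron markers were lower by more than 2-fold in 9 of 9 genes, at a median of -2.26 on the log2 scale, and none was at 0. Cardiac markers were lower in 6 of 8 genes, with a median of -0.22 and a summed TPM of 125 and 62.4. Actc1 carried that sum, at 94.7 and 31.6, and the other 7 summed to 29.8 and 30.9. Smooth muscle markers had a summed TPM of 91.9 and 144 and a median of 0.26, and endothelial markers a median of 0.19. Macrophage markers had a summed TPM of 798 and 1414. Of the cartilage markers, with a median of 0.15, Matn1 was at 0 in the E14 library. The part of cell composition in the channel differences was not tested.

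**Figure D4:**
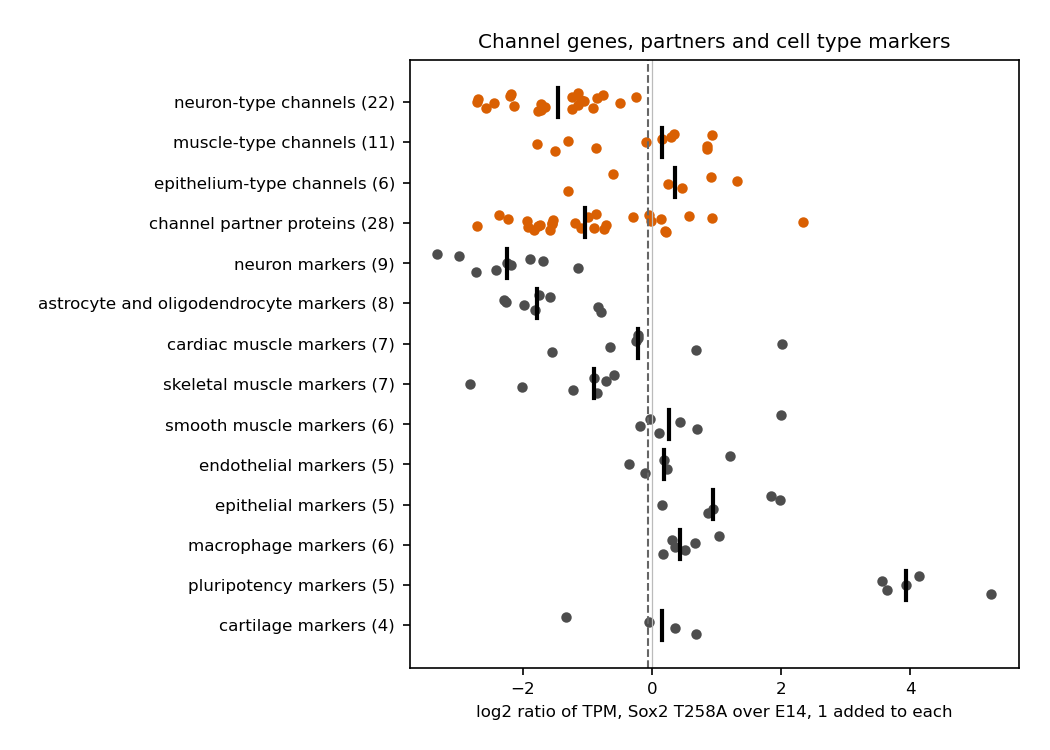
Log2 ratio of TPM, Sox2 T258A over E14 with 1 added to each, for channel genes by tissue of known use and for channel partners (orange) and for cell type markers (grey), among genes at 1 TPM or more in either library (number in parentheses). Black bars are medians, at -1.45 for neuron-type channels and -2.26 for neuron markers, and the dashed line is the median of all genes.

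Proteins that bind, anchor or regulate these channels were also compared. Of 30 such genes, 28 were expressed, with 17 lower and 1 higher by more than 2-fold, at a median of -1.05 on the log2 scale. Dpp6, a subunit of Kv4 channels, had 47.3 and 6.40 TPM. Nfasc, which assembles the axon initial segment, had 24.8 and 4.48, and Ank3, the ankyrin that anchors channels there, had 18.5 and 10.6. The reads of Ank3, 12024 and 2888, were further apart than its TPM, so its place within 2-fold holds for TPM only. Nalcn, the sodium leak channel, had 9.51 and 1.75, and its partner Unc79 had 8.48 and 0.82. The reads of Unc79, 2342 and 390, were less far apart than its TPM. The single gene higher by more than 2-fold by TPM was Lrrc26, a BK subunit of epithelia, at 0.57 and 6.94. Rest, the repressor of neuronal genes, had 14.1 and 27.6. The reads of Rest, 2265 and 5238, and of Stac2, 84 and 180, were further apart than their TPM. The place of Rest and Stac2 within 2-fold thus holds for TPM only.

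The remaining 35 members stayed under a TPM of 1 in both libraries, with at most 285 reads. Of these, 32 had reads, 16 lower and 16 higher in the Sox2 T258A library. Kcna10, Kcnk15 and Kcnk18 had 0 reads in both, which allows up to 3 reads in each. Scn10a, Cacna1f and Kcng4 had 0 reads with E14 and 10, 8 and 7 with Sox2 T258A. Kcnmb3 had 1 and 62 reads, a ratio scaled to the library totals of 63.9 (11.1 to 2564), and Kcne1 had 2 and 32, a ratio of 16.5 (4.21 to 142). Genes this rare were not resolved beyond these counts.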

How the data were processed

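PolyA RNA from 1 E14 and 1 Sox2 T258A teratoma library was analysed. The submitters' processing notes name bcl2fastq 2.20.0, Trimmomatic, HISAT2 2.1.0 and StringTie 2.1.3b, with mm10 as the mouse build. For each gene the authors deposited raw read counts together with FPKM and TPM. Whether reads were counted by strand is not given in the sources used here.

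Ratios of the deposited TPM were computed, with Clopper-Pearson intervals of the read counts, whose totals were 50529171 and 49030281. Classes and lists were assembled by hand. The members and lists were chosen with earlier results of these data known. Named genes were those passing the study's rule, the most abundant and the extreme members of each class, Kcnk1, members of the tissue lists, and members with 0 reads in 1 library. Several genes were named after their values were seen: neighbours, relatives of named genes, members with few reads and channel partners. Positions, exons and windows came from RefSeq and GENCODE annotation of GRCm38, and 45679 of 45777 gene identifiers matched. Alternatives covered the pseudocount, TPM filter, fold threshold, scaling, transcript length and chromosomes. The scripts were tested on simulated data. The tools were edgeR 4.0.16 (TMM factors only) in R 4.3.3, and scipy 1.17.1, pandas 2.3.3, numpy 2.4.6 and matplotlib 3.10.9 in Python 3.11.15. Some genes are not reported here by name, but they remain in the counts and medians.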

Additional observations from a re-analysis of the deposited data

How the results depend on the processing

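No paired analysis was possible because each group holds 1 library. Leaving out a library was not possible for the same reason. The 25 lower and 2 higher channel genes became 66 and 13 at 1 TPM or more, 75 and 23 without a filter, and 4 and 0 where both libraries had to reach 10 TPM, which admits fewer genes. With a fold above 3, 1 gene was higher. At 1 TPM or more, reads scaled to the library total gave 60 lower and 14 higher. Shares over all genes were computed only for ratios of TPM at 2-fold with 10 TPM or 1 TPM in either library. The other counts have no such share beside them and say nothing about members against other genes. The members' median log2 ratio became -1.40 with 0.1 added to each TPM, -1.72 at 10 TPM or more, -0.68 without a filter and -0.52 after removal of the median of like transcript length. With 0.1 added, the Kv1 to Kv4 median became -2.11 and the HCN median -2.30. Removal of the length median gave -0.35 for KCNQ and -0.58 for the pore-forming calcium channels. The modifier subunits turned to -0.099 without a filter, the inward rectifiers to 0.063 on FPKM and -1.88 at 10 TPM or more, where 1 gene remained, and the two-pore-domain channels to -0.45 at 10 TPM or more. The cause of these shifts was not tested beyond the change in the genes admitted. In all, 141 of 160 values of counts and medians stayed on the same side and within their bounds. Leaving out chromosomes 8, 15 and Y, whose genes differed as a block on chromosomes 8 and 15 (medians of -0.48 and 0.35), gave 22 lower genes and a median of -1.05. Some class medians shifted more. The modifier subunits went from 0.008 to 0.78 and the inward rectifiers from -0.06 to -0.49. The alpha2-delta and beta subunits of calcium channels went from -0.92 to -1.40. These shifts still count among the 141, so that count does not mean that class medians were unchanged. Alternatives chosen after seeing the data left out members whose TPM and read ratios parted by over 1.5 times, for a median of -1.06, or members with over 20% of exon bases in other genes, for -1.04. Depth limits genes with few reads, and no alternative replaces replicate tumours.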

Other observations

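Cation channels outside these families were compared in the same way. Of 55 such genes found in the table, 37 reached 1 TPM in either library. Of these, 8 (21.6%) were lower and 9 (24.3%) higher by more than 2-fold in the Sox2 T258A library, near the 18.9% and 19.3% of all genes, and their median was 0.06 on the log2 scale. The acid-sensing channels of neurons were lower, with Asic1 at 25.4 TPM with E14 and 6.03 TPM with Sox2 T258A, Asic2 at 10.6 and 1.90, and Asic4 at 13.4 and 1.80. The store-operated channels differed in direction, since Orai2 had 22.3 and 7.69 and Orai3 had 9.92 and 20.4. The magnesium-permeable Trpm6 of epithelia had 0.31 and 1.70, while its widespread relative Trpm7 had 24.8 and 24.4. Genes of this list were named after their values were seen.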
